A study of Homo sapiens with 4 samples.

Results

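The 37 genes described here encode the replication checkpoint and the Fanconi anaemia repair pathway, and were taken as a named list of symbols. All 37 were found in GENCODE 29, and all 37 were among the 10827 genes with enough spliced reads to be tested. Chromatin-bound RNA, which is largely RNA still being transcribed, was sequenced from K562 cells in 4 libraries. K562 is a human leukemia line of erythroid character, although the labels call the cells epithelial. There were 2 libraries of wild-type genotype (WT) and 2 of genotype SF3B1 K700E, a change in the U2 snRNP subunit that recognises the branch point of introns. The treatment text, which is the same for all 4 samples, gives induction of the modified allele with doxycycline (1 µg/ml) and harvest after 4 days. The labels do not say whether the WT cells carried an inducible allele, whether the line was 1 clone, or whether the replicates were separate cultures, so every p-value measures only the spread between these libraries.

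When a replication fork stalls, single-stranded DNA coated by RPA recruits the kinase ATR through ATRIP, and TOPBP1 or ETAA1 activates it. ATR then phosphorylates CHEK1 with the help of claspin (CLSPN) and of TIMELESS and TIPIN, which travel with the fork. At a crosslink between the DNA strands, FANCM and the Fanconi core complex add ubiquitin to FANCD2 and FANCI, and nucleases, helicases and the BRCA proteins complete the repair.

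The deposited files count reads across splice junctions, so each value below is an amount of spliced RNA on chromatin. Uniquely mapped junction reads totalled 3582592 and 3687513 in the WT libraries and 4304213 and 5322414 in the SF3B1 K700E libraries. Gene levels are CPM, the reads over a gene's annotated introns scaled to a common library total with TMM. Fewer cells that express a gene and less RNA per cell cannot be told apart in such bulk samples. Of the erythroid markers 8 of 11 were tested, with summed levels of 1623 and 2082 CPM in WT and 1422 and 2152 CPM in SF3B1 K700E, and of the epithelial markers 4 of 9, with 483 and 371 CPM against 348 and 443 CPM. TFRC alone held 1213 and 1640 CPM of the erythroid sums in WT and 1116 and 1660 CPM in SF3B1 K700E. The gap between the erythroid and epithelial sums thus rests mostly on 1 gene and does not tell the cell type. SF3B1 itself was read at 897 and 1016 CPM in WT and at 845 and 702 CPM in the mutant libraries (log2 change −0.31, SE 0.219, edgeR adjusted p = 0.747), which checks neither the point mutation nor its allele share. SF3B1 K700E replicate 1 gave the highest of the 4 values for 21 of the 37 genes, 56.8%, compared with 26.6% of all genes tested.

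No gene of the list passed the edgeR quasi-likelihood test in either direction at an adjusted p under 0.05, which 0.933% of all 10827 genes did (36 higher and 65 lower). DESeq2 also called 0 of the 37. At an unadjusted p under 0.05, TIPIN alone was higher (3.67% of all genes) and FANCD2 alone was lower (6.44%). In 8 genes both mutant libraries lay above both WT libraries (19.4% of all genes), in 4 both lay below (20.1%), and in 25 the groups overlapped. The log2 change was above 0 in 25 genes and below 0 in 12, with a median of 0.14, and was above 0 in 50.4% of all genes, with a median of 0.00. That lean rested on SF3B1 K700E replicate 1. Without it the median was −0.01, with 17 genes above 0 and 20 below. With the other mutant library left out instead, the median was 0.31.

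**Figure D1:**
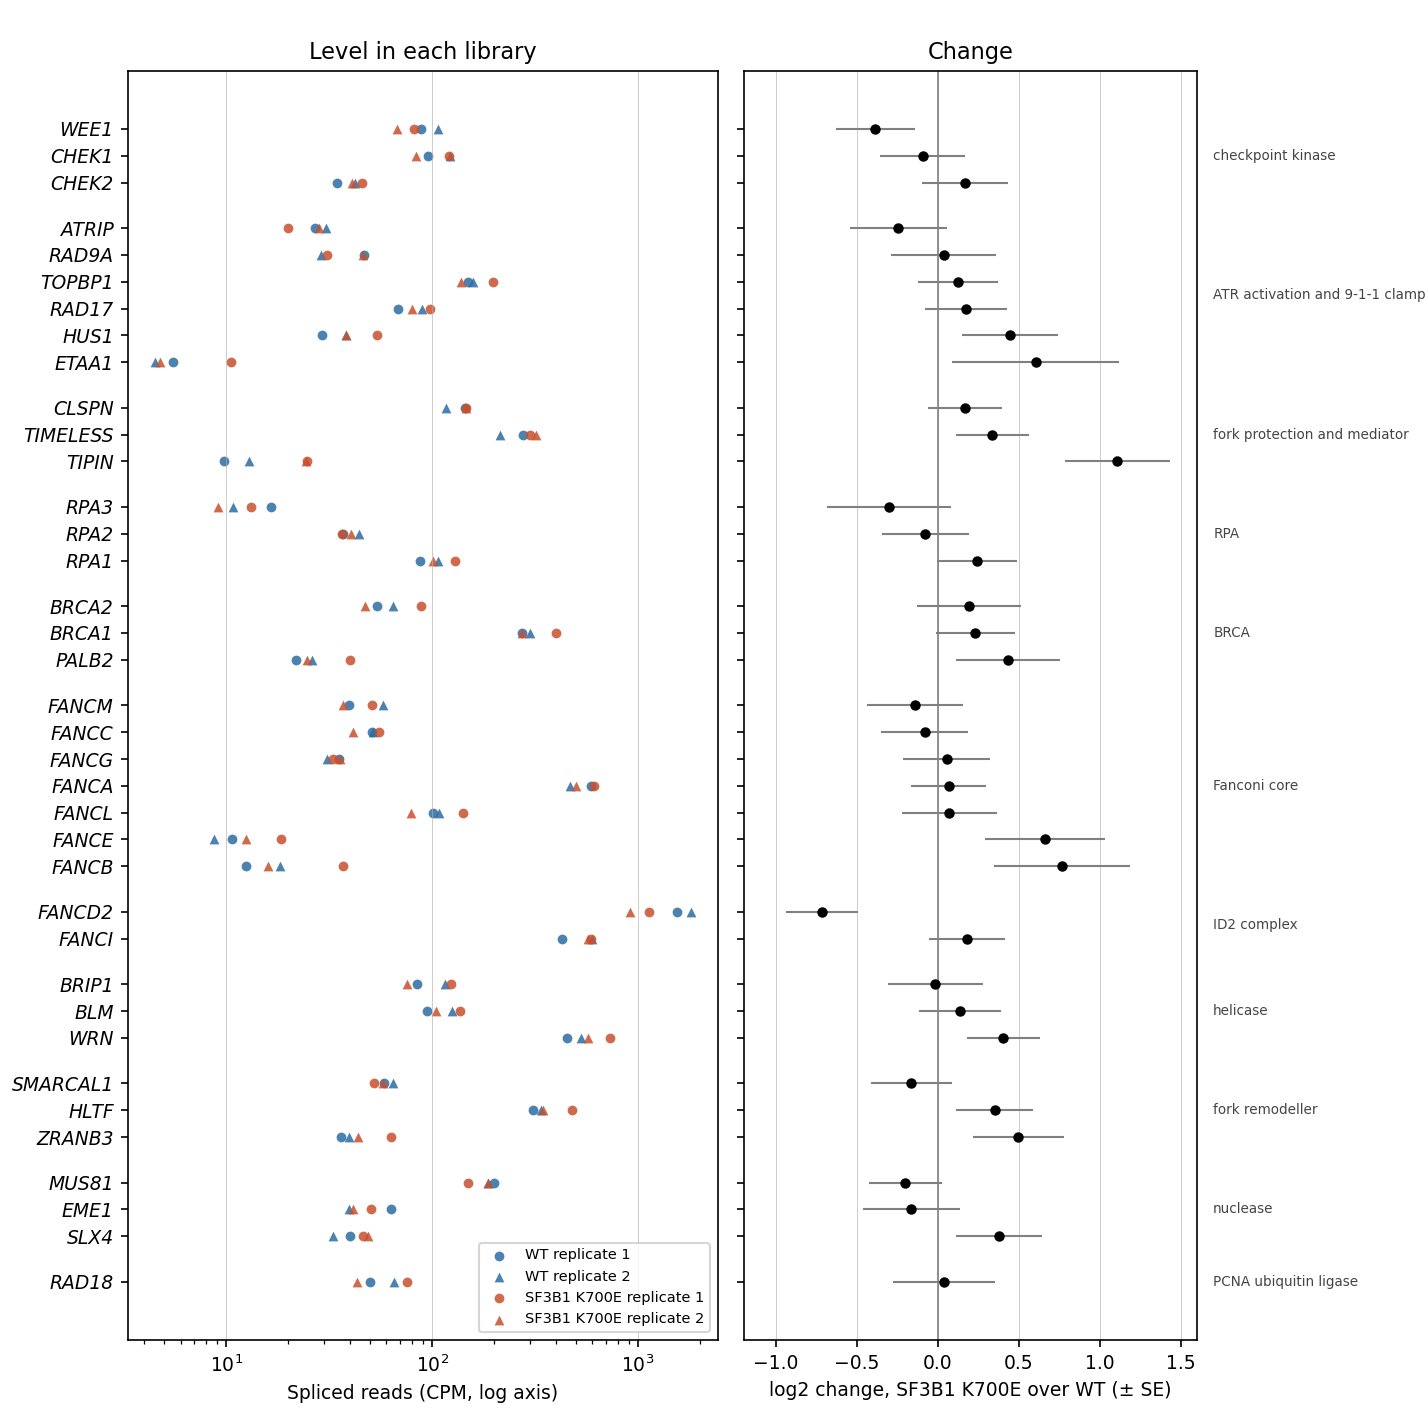
Spliced-read level of each of the 37 genes in each library (left, CPM on a log axis, circles for replicate 1 and triangles for replicate 2) and the log2 change of SF3B1 K700E over WT with its standard error (right), grouped by role. FANCD2, at 1548 and 1805 CPM in WT, lies furthest to the left in the right panel at −0.72, and TIPIN furthest to the right at 1.11.

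Among the sensors at stalled forks, the RPA subunits did not move together. RPA1 was at 87.4 and 107 CPM in WT and at 129 and 101 CPM in the mutant, and RPA2 at 37.0 and 44.2 against 36.6 and 40.3 CPM. RPA3, the smallest subunit, was at 16.5 and 10.8 CPM in WT and at 13.1 and 9.15 CPM in the mutant (log2 change −0.30, SE 0.383). All 3 pairs of groups overlapped, and the RPA3 difference changed sign without WT replicate 1 (0.04). ATRIP, the partner through which ATR binds RPA, was at 26.9 and 30.4 CPM in WT and 19.9 and 28.3 CPM in the mutant (log2 change −0.24). Its groups also overlapped, and the change ranged from −0.51 without SF3B1 K700E replicate 2 to −0.01 without SF3B1 K700E replicate 1.

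The factors that switch ATR on differed widely in level. ETAA1 had the lowest level per intron of the 37, at 1.00 CPM per intron in WT, and its total was 5.50 and 4.51 CPM in WT against 10.6 and 4.78 CPM in the mutant (log2 change 0.60, SE 0.516). The mutant mean came from 1 library, and the change was −0.06 without SF3B1 K700E replicate 1. TOPBP1 was at 149 and 158 CPM in WT and at 197 and 138 CPM in the mutant. Of the checkpoint clamp and its loader, HUS1 was at 29.3 and 38.2 CPM in WT and at 54.0 and 38.1 CPM in the mutant (log2 change 0.44, SE 0.295, adjusted p = 0.715), and its change was 0.18 without SF3B1 K700E replicate 1. RAD9A and RAD17 changed by 0.04 and 0.17 on the log2 scale, and the groups of all 3 clamp genes overlapped.

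TIMELESS, TIPIN and CLSPN, the fork protection and mediator proteins, were the only role group of the list in which every gene lay higher in both mutant libraries. TIPIN was read at 9.78 and 12.9 CPM in WT and at 24.7 and 24.3 CPM in SF3B1 K700E, a ratio of 2.16. Its groups were far apart compared with the spread inside each, but it rested on 32 and 43 reads in WT and 98 and 117 in the mutant. The log2 change was 1.11 (SE 0.323, n = 2 per group) and the edgeR adjusted p was 0.190. TIMELESS was at 278 and 214 CPM in WT and at 300.2 and 320.1 CPM in the mutant (log2 change 0.34, SE 0.227, adjusted p = 0.725). CLSPN, which bridges ATR and CHEK1, was at 144 and 117 CPM in WT and at 146 and 147 CPM in the mutant (log2 change 0.17), so that the groups were separated by less than the spread inside WT. Without WT replicate 2 the changes were 0.18 in TIMELESS and 0.04 in CLSPN.

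The kinases below ATR showed no called change. CHEK1 was at 96.0 and 122 CPM in WT and at 121 and 83.8 CPM in the mutant, and CHEK2, the effector of ATM, at 34.5 and 42.1 against 45.4 and 40.8 CPM. WEE1, which holds CDK1 inactive, was at 88.0 and 107 CPM in WT and at 81.2 and 67.8 CPM in the mutant. Both mutant libraries lay below both WT libraries, with a log2 change of −0.39 (SE 0.246, adjusted p = 0.695) that was −0.22 without WT replicate 2 and −0.25 without SF3B1 K700E replicate 2. CDK1, the target of WEE1 and no member of the list, was at 126 and 166 CPM in WT and at 73.2 and 51.6 CPM in the mutant (log2 change −1.23, adjusted p = 0.0700), while 9 of the 12 cycling markers it belongs to had a log2 change above 0. The summed level of those markers was 1647 and 1803 CPM in WT and 1745 and 1685 CPM in the mutant, and their part in the WEE1 difference was not tested.

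FANCD2, one of the pair that the core complex marks with ubiquitin, had the highest level of the list per intron, at 39.0 CPM per intron in WT against 14.4 for WRN, the next. Its total was 1548 and 1805 CPM in WT and 1127 and 916 CPM in SF3B1 K700E. Both mutant libraries lay below both WT libraries, and the gap between the groups was larger than the spread inside either. The mutant level was 0.609 of the WT level, a log2 change of −0.72 (SE 0.224, n = 2 per group), with an edgeR adjusted p of 0.235. FANCI, its partner, was read at 429 and 600.4 CPM in WT and at 593 and 572 CPM in the mutant (log2 change 0.18), so the 2 subunits of the pair had changes of opposite sign. That difference between them was not tested.

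The lower FANCD2 reading ran along the gene. Of its 43 introns, all with at least 20 reads, 34 were lower in both mutant libraries than in both WT libraries, 0 were higher and 9 overlapped. Among all 102215 annotated introns with as many reads, 17.0% were lower and 18.8% higher in this sense. The introns of 1 gene come from the same transcripts and are not replicates. Summed over the introns nearest the start, in the middle and nearest the end of the gene (equal parts of the 43), the mutant level was 0.678, 0.554 and 0.583 of the WT level. Pseudogene copies of FANCD2 lie on the same chromosome (FANCD2P2 in GENCODE 29), and multiply mapped reads made up 2.16% of the reads of FANCD2. With them added, its log2 change was −0.72.

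**Figure D2:**
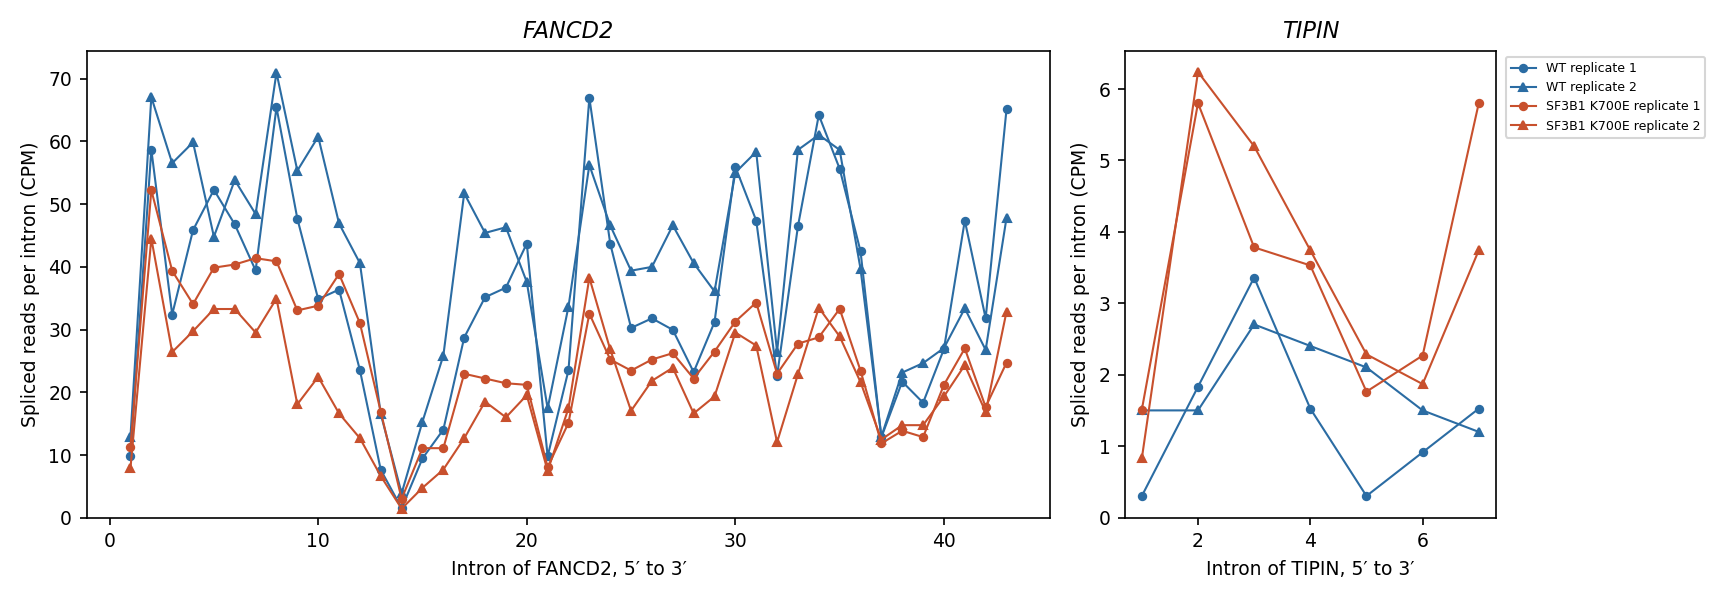
Reads over each annotated intron of FANCD2 and TIPIN in 5′ to 3′ order (CPM, linear axis from 0), with one line per library. In FANCD2 the mutant lines lie under both WT lines at 34 of 43 introns, and in TIPIN they lie above both at 5 of the 6 introns with at least 20 reads.

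TIPIN showed the opposite arrangement over its 7 introns. Of the 6 with at least 20 reads, 5 were higher in both mutant libraries, and intron 5 overlapped. The first intron had too few reads to be counted, 1 and 5 in WT against 6 and 4 in the mutant. Over the same parts, the mutant level was 2.80, 1.63 and 2.35 of the WT level.

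Over the whole list, 597 of 653 introns had at least 20 reads, of which 134 (22.4%) were higher and 86 (14.4%) lower in the 2 mutant libraries than in the 2 WT libraries. The shares over all annotated introns with as many reads were 18.8% and 17.0%. FANCD2 held 34 of the 86 lower introns, and without it the shares of the list were 24.2% and 9.39% of 554 introns. It was left out after its values were seen, and no gene with many higher introns was left out in turn. Higher introns numbered 16 of 34 in WRN, 13 of 25 in HLTF and 12 of 28 in TIMELESS, and none of WRN or HLTF was lower. Lower introns numbered 8 of 15 in MUS81 and 5 of 10 in WEE1, and neither gene had a higher one.

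In the Fanconi core complex 5 of the 7 subunits had log2 changes between −0.14 and 0.07. FANCA was at 594 and 467 CPM in WT and 610.3 and 500.4 CPM in the mutant, and FANCC, FANCG and FANCM changed by −0.08, 0.05 and −0.14 on the log2 scale. FANCL, the ubiquitin ligase of the complex, was at 101 and 109 CPM in WT and at 142 and 78.6 CPM in the mutant. FANCB and FANCE gave the larger values. FANCB was at 12.5 and 18.3 CPM in WT and at 36.8 and 16.0 CPM in the mutant, and its log2 change of 0.77 (SE 0.420, adjusted p = 0.627) was 0.06 without SF3B1 K700E replicate 1. FANCE, which contacts FANCD2, was at 10.7 and 8.72 CPM in WT and at 18.4 and 12.5 CPM in the mutant. Its groups did not overlap, with a log2 change of 0.66 (SE 0.371, adjusted p = 0.632) from 197 reads in all, and 0.37 without SF3B1 K700E replicate 1.

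The BRCA proteins, which shield the stalled fork, had one high mutant library each. BRCA1 was at 273 and 300.04 CPM in WT and 399 and 274 CPM in the mutant, BRCA2 at 54.1 and 64.3 against 88.8 and 47.0 CPM, and PALB2, the bridge between them, at 21.7 and 26.2 against 40.1 and 24.7 CPM. In all 3 genes SF3B1 K700E replicate 1 held the highest value and the groups overlapped. RAD18, the ligase that marks PCNA at blocked forks, was also highest in that library, at 50.1 and 65.2 CPM in WT and 75.4 and 43.3 CPM in the mutant.

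Among the helicases, WRN, the Werner syndrome protein, was at 453 and 528 CPM in WT and at 729 and 570 CPM in the mutant. Both mutant values were above both WT values, with a log2 change of 0.40 (SE 0.228, adjusted p = 0.637). BLM and BRIP1 overlapped, with log2 changes of 0.14 and −0.02. The fork remodellers were split. ZRANB3 was at 36.1 and 39.4 CPM in WT and at 62.8 and 43.9 CPM in the mutant (log2 change 0.50, SE 0.281, adjusted p = 0.640), and HLTF at 310 and 337 against 480.3 and 344 CPM (log2 change 0.35). SMARCAL1 was at 58.7 and 64.3 CPM in WT and at 52.0 and 57.8 CPM in the mutant (log2 change −0.16), so 2 remodellers were higher in both mutant libraries and 1 was lower. Without SF3B1 K700E replicate 1 the changes were 0.22 in WRN, 0.23 in ZRANB3, 0.10 in HLTF and −0.08 in SMARCAL1, which was at −0.07 without WT replicate 2.

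The structure-specific nucleases were also split. SLX4, the scaffold on which they assemble, was at 39.7 and 33.1 CPM in WT and at 45.9 and 48.7 CPM in the mutant (log2 change 0.38, SE 0.264). MUS81 was at 199 and 187 CPM in WT and at 149 and 187 CPM in the mutant. The second mutant library lay only just below WT, and the log2 change was −0.20, and −0.04 without SF3B1 K700E replicate 1. EME1, the partner of MUS81, was at 63.3 and 39.4 CPM in WT and 50.2 and 41.4 CPM in the mutant, with a log2 change of −0.17 that became 0.22 without WT replicate 1.

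Of 40 further genes of the same pathways, 34 were tested and 0 were called in edgeR, with a median log2 change of −0.02. At an unadjusted p under 0.05, 0 were higher and 2 of the 34 were lower, compared with 3.67% and 6.44% of all genes tested. The lower count is thus near the share over all genes. DNA2, a nuclease and helicase at stalled forks, was at 136 and 155 CPM in WT and 98.4 and 64.5 CPM in the mutant (log2 change −0.84, adjusted p = 0.242). MAD2L2, a subunit of the translesion polymerase zeta, was at 52.3 and 49.6 CPM against 31.3 and 34.3 CPM (log2 change −0.63, adjusted p = 0.423). ATR itself was at 296 and 317 CPM in WT and 438 and 281 CPM in the mutant, with overlapping groups.

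The choice of splice sites within the 37 genes was then compared. The genes held 1577 junctions with a standard splice motif, of which 824 were annotated and carried 89778 reads, and 753 were not annotated and carried 2330 reads, 2.53% of the total. Acceptor choice is the share of reads from 1 donor (5′ splice site) that go to a given acceptor (3′ splice site), and donor choice is the share of reads into 1 acceptor that come from a given donor. In the fit over all genes 125 acceptor and 126 donor choices of the list were tested, and 0 passed an adjusted p under 0.05 in edgeR's diffSpliceDGE or in limma. Among all 23366 acceptor choices, 31 (0.133%) were called higher and 1 (0.00428%) lower, and among all 22976 donor choices 1 (0.00435%) was called in each direction. At an unadjusted p under 0.05, 2 acceptor choices of the list were higher and 0 lower (2.46% and 0.715% of all acceptor choices), and 1 donor choice was higher and 2 lower (1.55% and 0.622% of all donor choices).

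Of 102 acceptor choices with at least 10 reads in every library, 17 were higher in both mutant libraries and 17 lower, against 19.6% and 19.1% of all genes' choices. Of 110 donor choices 24 were higher and 24 lower, against 18.8% and 18.6%. Junctions that share a donor or an acceptor have shares that add up to a fixed total. A higher share of any of them thus forces a lower share elsewhere at the same site, and both were counted. The equal counts therefore do not measure a balance between the directions, and fewer separate sites differed than the counts give. The 12 alternative junctions that differed most in mean use, among those with no overlap of the groups that were not the most used of their cluster, are described next. They were chosen for that difference, so their values are a description. The tests cited are those of the fit over all genes, in which the adjusted p was at least 0.999 for each of the 12.

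Of the 12, 5 skip exons. The exons of 4 of them are printed below in capitals from GENCODE 29 transcripts (GRCh38), with 15 bases of each neighbouring exon in lower case, to show what the skipping junction leaves out. They lie at chr15:90760147-90760279 on the plus strand, chr17:61849129-61849256 on the minus strand, chr1:35737339-35737421 on the minus strand and chr11:125627607-125627830 on the plus strand.
BLM exon 6: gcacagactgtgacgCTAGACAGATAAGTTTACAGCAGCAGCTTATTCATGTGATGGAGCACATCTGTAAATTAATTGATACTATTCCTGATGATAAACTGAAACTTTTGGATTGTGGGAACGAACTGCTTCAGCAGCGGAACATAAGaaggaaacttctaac
BRIP1 exon 5: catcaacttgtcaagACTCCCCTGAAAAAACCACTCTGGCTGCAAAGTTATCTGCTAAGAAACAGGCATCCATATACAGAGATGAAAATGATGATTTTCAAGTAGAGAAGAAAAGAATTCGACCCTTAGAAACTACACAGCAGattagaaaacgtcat
CLSPN exon 23: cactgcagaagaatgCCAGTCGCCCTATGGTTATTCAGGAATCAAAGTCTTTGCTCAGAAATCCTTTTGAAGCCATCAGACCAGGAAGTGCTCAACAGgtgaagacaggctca
CHEK1 exon 3: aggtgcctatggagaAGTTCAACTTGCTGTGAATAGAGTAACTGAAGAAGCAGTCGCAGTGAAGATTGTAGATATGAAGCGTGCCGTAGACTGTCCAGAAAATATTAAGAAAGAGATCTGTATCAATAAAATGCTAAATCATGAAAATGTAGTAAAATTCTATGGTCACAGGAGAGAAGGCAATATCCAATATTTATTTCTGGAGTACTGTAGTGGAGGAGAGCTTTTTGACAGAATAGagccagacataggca

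All 4 exons are coding throughout, and their lengths of 133, 128, 83 and 224 bases are not multiples of 3. BLM exon 6 was skipped less in the mutant. Of the reads leaving exon 5, those that skipped exon 6 were 5 of 14 and 6 of 19 in WT (35.7% and 31.6%) and 4 of 26 and 3 of 15 in SF3B1 K700E (15.4% and 20.0%). The means were 33.6% ± 2.92 and 17.7% ± 3.26 (SD, n = 2 each), from 7 mutant and 11 WT skipping reads.

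The unannotated junction over BRIP1 exon 5 was used more in the mutant. It took 13.9% and 7.55% of the reads leaving exon 4 in WT and 26.8% and 18.0% in the mutant, from 9 and 24 reads in all. The unannotated junction over CLSPN exon 23 took 7.14% and 5.26% of the reads into exon 24 in WT and 16.7% and 18.8% in the mutant, from only 3 and 11 reads. In CLSPN the groups were further apart than the spread inside either, and in BRIP1 they were not. Among reads into exon 6 the same BRIP1 junction took 17.2% and 12.9% in WT and 28.3% and 18.0% in the mutant, where the groups almost met. Neither junction reached an unadjusted p of 0.05.

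CHEK1 exon 3 was skipped by an annotated junction. Among reads into exon 4, skipping reads made up 30% and 21.1% in WT and 31.6% and 45.7% in the mutant. Among reads leaving exon 2, the same 45 junction reads made up 29.03% and 16.7% in WT and 21.1% and 30.8% in the mutant, where the groups overlapped. The difference in CHEK1 was thus seen from one side of the exon alone. In FANCI, reads that skipped exons 23 and 24, 345 bases and a multiple of 3, were 0 of 11 and 1 of 20 into exon 25 in WT and 3 of 23 and 6 of 42 in the mutant, or 13.0% and 14.3%.

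For another 3 junctions, annotated transcripts give bases beside the alternative site. The capitals mark the exon bases that follow the upstream acceptor of FANCA intron 24, the bases that the downstream acceptor of HLTF intron 12 leaves out, and the bases that the downstream donor of FANCA intron 41 adds. Neighbouring exon bases are in lower case. They lie at chr16:89770430-89770462, chr3:149059805-149059807 and chr16:89739129-89739132 in GRCh38, all on the minus strand.
FANCA intron 24 acceptor: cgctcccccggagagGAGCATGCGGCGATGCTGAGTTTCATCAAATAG
HLTF intron 12 acceptor: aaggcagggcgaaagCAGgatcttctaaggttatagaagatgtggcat
FANCA intron 41 donor: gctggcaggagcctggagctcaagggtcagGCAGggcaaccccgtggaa

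The FANCA acceptor lies 203 bases upstream of the usual acceptor of intron 24 and belongs to an annotated non-coding transcript whose last exon is the 33 bases shown. It took 3 of 34 and 2 of 25 reads in WT (8.82% and 8%) and 11 of 33 and 7 of 22 in the mutant (33.3% and 31.8%). The groups were 8.41% ± 0.582 and 32.6% ± 1.07 (SD, n = 2 each), with a log2 change in relative use of 1.91 and an edgeR p of 0.0250 before adjustment. The last intron but one of FANCA, intron 41, used a donor 4 bases downstream in 9.52% and 6.67% of reads in WT and in 23.5% and 33.3% in the mutant, from 3 and 12 reads. A donor 2252 bases downstream of that of intron 28 of FANCA took 25.0% and 30% in WT and 36.5% and 40.5% in the mutant. An annotated acceptor in the same intron, 771 bases upstream of the usual one, took 35.7% and 31.7% in WT and 24.2% and 56.9% in the mutant. There the groups overlapped, so the difference within intron 28 was seen from the donor alone. FANCA thus held 3 of the 12 junctions while its gene total changed by 0.07 on the log2 scale.

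In HLTF the acceptor 3 bases downstream in intron 12 took 18.8% and 11.4% of reads in WT and 26.9% and 28.6% in the mutant. It leaves out the CAG shown, 1 codon in length. An unannotated donor 2236 bases into intron 14 of HLTF went the other way, at 23.5% and 24.0% in WT and 5.88% and 0% in the mutant, one of the choices under 0.05 before adjustment. The count of 0 among 30 reads in the second mutant library allows a share of up to 10.0%.

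The 2 remaining junctions were used less in the mutant. A donor 11 bases downstream in intron 1 of FANCI took 18.8% and 11.6% of reads in WT and 5.88% and 2.703% in the mutant, and was also under 0.05 before adjustment. That cluster has 6 donors, and its most used one, 1806 bases downstream and so outside the 12, took 15.6% and 20.9% in WT and 35.3% and 33.8% in the mutant, from 14 and 49 reads (edgeR adjusted p above 0.999). An unannotated donor 8636 bases into intron 33 of WRN took 21.1% and 21.7% in WT and 6.82% and 13.9% in the mutant. Both rested on 17 reads in all.

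**Figure D3:**
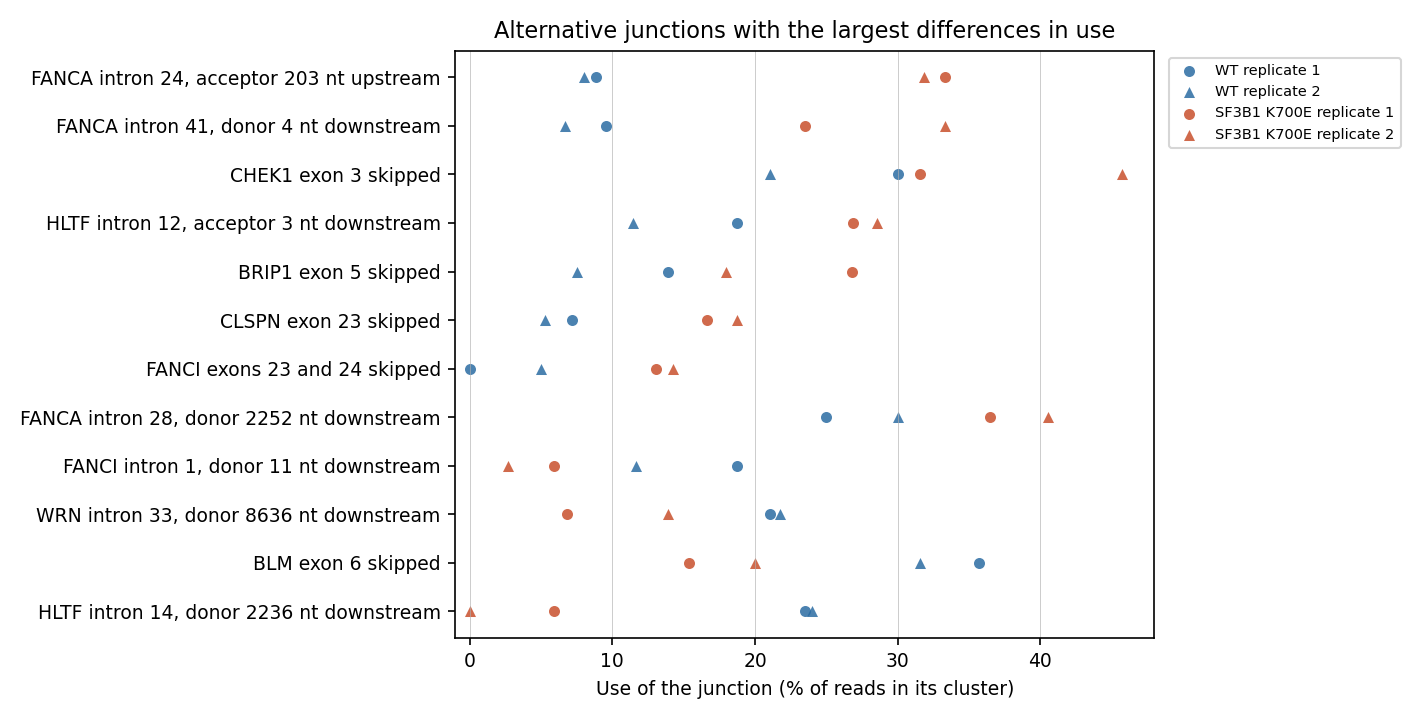
Use of the 12 alternative junctions that differed most between the groups, as the percent of reads in the cluster of junctions that share a donor or an acceptor, with one point per library (circles for replicate 1, triangles for replicate 2). The groups do not overlap in any row, by the way the junctions were chosen, and the upstream acceptor of FANCA intron 24 stands at 8.82% and 8% in WT and at 33.3% and 31.8% in SF3B1 K700E.

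SF3B1 K700E is known for the use of unannotated acceptors 10 to 30 bases upstream of the usual one. In the 37 genes 26 such acceptors were read, in 16 genes, with 23 reads in WT and 67 in the mutant, and 11 of them rested on 1 read. Of the reads at these sites and at the usual acceptors beside them, the upstream sites took 0.452% and 1.83% in WT and 2.55% and 2.24% in the mutant (exact permutation p = 0.33, 2-sided, the smallest that 4 libraries allow). In other genes the shares were 0.810% and 0.929% against 2.46% and 1.97%. The groups did not overlap in either set, and the WT libraries of the 37 genes lay further apart. A site entered these shares through a read in any library. Of the 26 sites 16 had 0 reads in WT, where they added only reads of the usual acceptor. The mutant libraries held more reads and so could bring in more sites. How far the difference reflects which sites entered was not tested, and the permutation test does not separate it. The same holds for the other genes and for the downstream sites below. Leaving out WT replicate 1 reduced the difference from 1.26 to 0.565 percentage points. New acceptors at the same distance downstream took 2.16% and 2.75% in WT and 4.33% and 3.11% in the mutant, from 10 sites, so the window upstream was not the only one with a higher share. The WRN site there had 4 reads in WT and 14 in the mutant, and a FANCI site 0 and 7. In other genes the downstream shares were 1.22% and 1.24% against 1.61% and 1.51%.

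The difference upstream rested on 2 of the 26 sites. One lies 22 bases upstream of WRN exon 14, with 0 and 7 reads in WT and 8 and 14 in the mutant, which is 0% and 8.75% against 8.16% and 14.9% of the reads there. The WRN groups overlapped. The other lies 21 bases upstream of BRCA1 exon 9, at the end of an intron read from chr17:43095944-43097243. It had 0 of 83 and 0 of 75 reads in WT and 9 of 143 and 3 of 119 in the mutant, or 6.29% and 2.52%. Over both WT libraries, 0 of 158 reads allow a share of up to 1.90%. The BRCA1 site had the smallest p of the list in acceptor choice (edgeR adjusted p = 0.710) and was singled out after its values were seen. Without these 2 sites the shares were 0.531% and 1.36% in WT and 1.62% and 1.20% in the mutant. The groups then overlapped (exact permutation p = 0.667).

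Of the other sites upstream, none had 10 reads. Over all 26, 16 including the BRCA1 site were read in the mutant libraries alone and 4 in the WT libraries alone. Such sites were not counted in other genes, so whether these numbers are particular to the list was not tested. Examples with 2 mutant reads and 0 WT reads lay 19 bases upstream of an exon of BLM, 20 bases upstream in BRIP1, 17 bases upstream in HLTF and 13 bases upstream in RAD17. In BLM and in BRIP1 both reads came from 1 library. Sites 15 bases upstream in FANCC and 23 bases upstream in FANCD2 went the other way, with 2 reads in WT replicate 2 and 0 in the mutant. Reads of the list numbered 40079 in WT and 52029 in the mutant, so a site of few reads had more chance to be read in the mutant. A donor inside intron 7 of BRIP1, 6561 bases from the usual one, had 0 of 25 and 0 of 32 reads in WT and 8 of 51 and 2 of 33 in the mutant and an edgeR adjusted p above 0.999. It was also singled out after its values were seen.

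Unannotated junctions, counted together, took a larger share in the mutant libraries. They made up 2.18% and 2.27% of the junction reads of the 37 genes in WT and 2.84% and 2.69% in SF3B1 K700E, a difference of 0.540 percentage points (exact permutation p = 0.33). Over junctions with at least 10 reads the difference was 0.196 points. Each library's share has a 95% Wilson interval of about 0.2 points to either side, which covers counting error only, and the intervals of WT replicate 1, 1.98% to 2.40%, and SF3B1 K700E replicate 1, 2.64% to 3.05%, did not meet. In other genes the share was 2.88% and 2.90% against 3.37% and 3.06%. By gene, the share was higher in both mutant libraries in 12 of the 37, lower in 4 and overlapping in 21, against 23.0% higher and 9.29% lower of 10773 genes tested. RPA2 went from 0.820% and 0.676% to 5.84% and 3.96%, FANCM from 4.44% and 7.25% to 12.5% and 8.25%, and SLX4, in the other direction, from 4.41% and 6.78% to 1.62% and 1.68%. Few reads carried these shares. RPA2 had 1 and 1 unannotated reads in WT and 9 and 8 in the mutant, FANCM 6 and 15 against 29 and 16, and SLX4 6 and 8 against 3 and 4.

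Exon skipping had the same direction. Junctions that join exons of the main transcript over at least 1 exon took 1.05% and 0.953% of reads in WT and 1.29% and 1.35% in the mutant, against 1.15% and 1.17% and 1.39% and 1.27% in other genes. The difference in the 37 genes lay in unannotated skipping, at 0.574% and 0.517% in WT and 0.845% and 0.919% in the mutant. Annotated skipping was 0.480% and 0.436% in WT and 0.448% and 0.429% in the mutant, with overlapping groups. In other genes unannotated skipping was 0.495% and 0.510% against 0.656% and 0.583%, and whether the 37 genes differ from them was not tested. The difference in skipping was 0.317 points over all junctions and 0.0384 points, with overlapping groups, over junctions with at least 10 reads, so it came from junctions of few reads. Of the 29 skipping junctions with enough reads to be tested, 22 leave out a number of bases that is not a multiple of 3. Of the 29, 13 are annotated, and all were counted whatever their difference between the groups. The same count was not made in other genes, so it describes the list only.

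**Figure D4:**
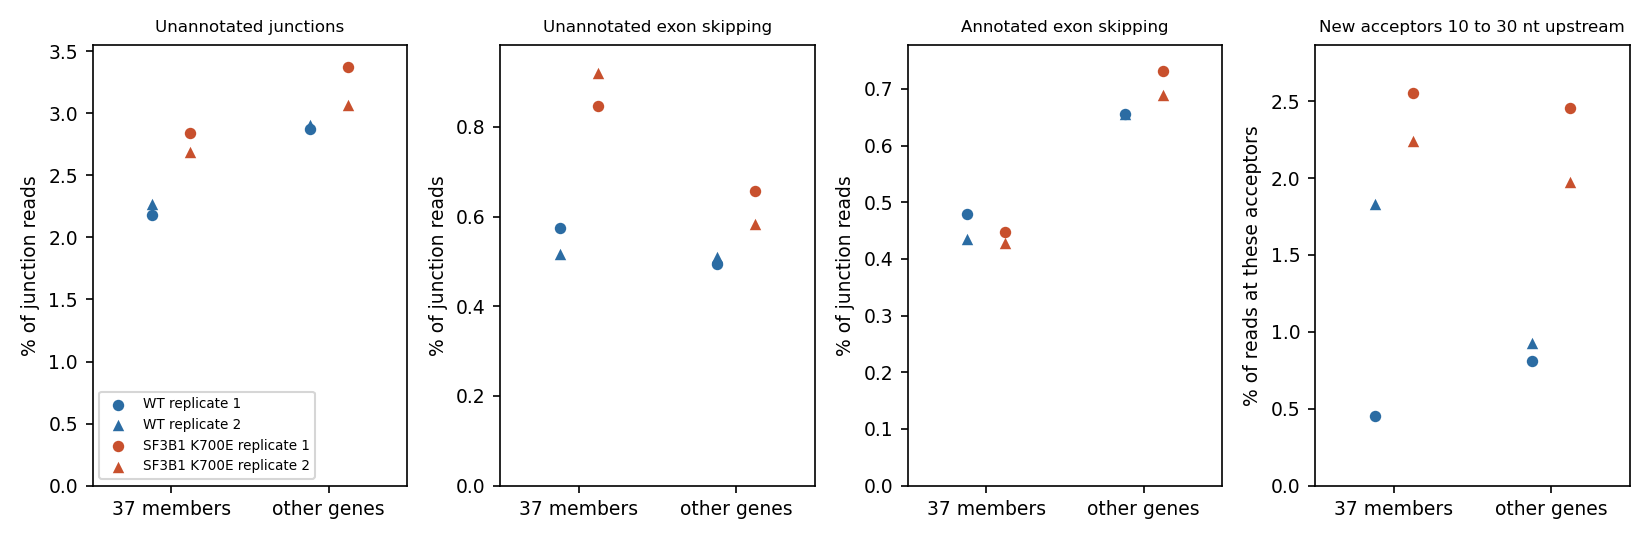
Shares of junction reads in the 37 genes and in other genes, with one point per library, for unannotated junctions, unannotated and annotated exon skipping, and new acceptors 10 to 30 bases upstream of the usual one (percent, axes from 0). Both mutant points lie above both WT points in every pair except annotated skipping in the 37 genes, where the groups overlap.

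The position of reads along the genes was compared last, since the series title concerns transcription elongation. For the 30 genes of the list longer than 20 kb, the log2 ratio of reads in the last part of the gene span to those in the first, with the span cut into 3 equal parts, had a median of −0.17 and −0.17 in WT and −0.29 and −0.02 in SF3B1 K700E. The mutant libraries lay to either side of WT (exact permutation p = 1.00, 2-sided). By gene the ratio was higher in both mutant libraries in 7, lower in 3 and overlapping in 20, against 19.4% higher and 15.9% lower of 7453 genes of that length. The ratio adds 0.5 reads to each part, so where a part holds almost no reads it follows the read count of the other part. Of the 7, TIPIN was such a gene, at 5.98 and 6.27 in WT and 7.53 and 7.83 in the mutant, as were BRCA1 and FANCC. CHEK1, also of the 7, had few reads in its last part, so a handful of reads sets its ratio. It was at −8.78 and −6.74 in WT and −6.00 and −6.71 in the mutant. The counts by gene thus do not measure read position alone. Other genes had medians of 0.82 and 0.76 in WT and 0.79 and 0.93 in the mutant, also overlapping. Its difference between the groups was 0.01 on the log2 scale, −0.12 without SF3B1 K700E replicate 2 and 0.15 when the first was left out in its place.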

How the data were processed

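Per the deposited run logs, the authors ran STAR 2.7.10a (GRCh38.p12, one pass) with 353424 annotated junctions from GENCODE 27 and 1887 from release 22. Buffers held 25 µM α-amanitin, and polyadenylated RNA (3 rounds) and ribosomal RNA were removed, per the labels' protocols. The deposited junction counts are raw, per the file headers and STAR's column order. They hold no unspliced reads, and strand came from the splice motif. Uniquely mapped reads were assigned to GENCODE 29 introns and summed per gene, leaving out introns of more than 1 gene. Genes were tested with edgeR 4.0.16 (R 4.3.3; filterByExpr, TMM, quasi-likelihood, group as the only term, Benjamini-Hochberg at 0.05), and junctions with at least 10 reads with diffSpliceDGE. SE is the absolute log2 change divided by the square root of F. DESeq2 1.42.0 and limma 3.58.1 were alternatives. Only the edgeR tests of genes and of acceptor choice were also run on simulated data. Shares were compared by exact permutation over 6 assignments. PCR duplicates cannot be told from molecules. Genes named were SF3B1, called members, the 6 largest rises and falls, non-overlapping members and 12 junctions by difference in use, and others serve to describe each role. The members and lists were chosen with earlier results of these data known.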

Additional observations from a re-analysis of the deposited data

How the results depend on the processing

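The 0 called genes and 0 called junctions of the list stayed at 0 under DESeq2, limma, other scaling, other filters, multiply mapped reads and the loss of any 1 library (range 0 to 0 for genes and for junctions in each direction). The fit with a replicate block also called 0 genes and 0 junctions of the list in each direction. Same-numbered libraries did not deviate together (correlation of deviations −0.207), so the numbers were not taken as pairs. With the numbers crossed, an alternative chosen after seeing the data, 1 gene of the list, FANCD2, was called lower and 0 higher, where that fit called 326 lower and 134 higher of 10827 genes (85 and 51 with the uncrossed block). All 112 alternative values of the 12 named junctions kept their direction, as did all but 3 of 209 values of 19 genes (SF3B1, the 6 largest rises and falls and the genes whose groups do not overlap). The exceptions were ETAA1 without SF3B1 K700E replicate 1 (−0.056; range on leaving out 1 library to 1.09) and, without WT replicate 1, RPA3 (0.036; range from −0.57) and EME1 (0.22; range from −0.45). The share differences ranged, on leaving out 1 library, from 0.465 to 0.615 points for unannotated junctions, 0.565 to 1.95 for upstream acceptors and 0.267 to 0.368 for skipping. Over junctions with at least 10 reads they were 0.196, 5.26 and 0.0384 points. The value of 5.26 came from only 2 upstream sites, those of WRN and BRCA1, and the BRCA1 site had reads in the mutant alone. Without these 2 sites, the most used ones, the upstream difference was 0.465, an alternative also chosen after seeing the data. The 3′ to 5′ difference reversed over 4 parts of the span in place of 3 (−0.036), with multiply mapped reads (−0.011) and on leaving out 1 library (range −0.12 to 0.15). With 2 libraries per group, the permutation tests could not reach 0.05.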
